A study of Mus musculus with 4 samples.

Results

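The 10 heat shock genes described here are Hspb1, Hspb6, Hspb8 and Cryab (small heat shock proteins), Hspa1a and Hspa1b (inducible Hsp70), Hsph1 (Hsp110), Dnajb1 (Hsp40), Hspe1 (the mitochondrial Hsp10) and Hsf1 (heat shock factor). They were chosen by name, with the levels in these libraries already known, from 23005 genes and unnamed transcript entries, and each was found as 1 transcript entry. All 10 were among the 14386 that had at least 1 RPKM (reads scaled to the transcript's length and the library's total) in at least 1 library. Because the choice used these values, every level and ratio of the 10 genes is a description and carries no test.

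The 4 libraries hold RNA of mouse embryonic fibroblasts (MEFs), connective tissue cells grown from embryos, which were labelled Mll1+/+ (wild type) or Mll1-/- for the histone methyltransferase gene Mll1, whose current symbol is Kmt2a. Cells of each genotype were left with control solution or given the inflammatory cytokine TNFa (tumour necrosis factor alpha, TNF below) for 4 hr at 10 ng/ml. The dose is in ng/ml in the design text and the sample characteristics, whereas the treatment protocol gives another unit. The cells of 3 separate treatments were mixed before sequencing, so each of the 4 groups is 1 library with no replicate spread, and neither the number of embryos or clones behind each genotype nor any immortalization is given in the sources used here.

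Heat shock proteins are chaperones that hold or refold damaged proteins. Small heat shock proteins form oligomers that bind unfolding proteins without using ATP and pass them to Hsp70, which works with Hsp40 partners and with nucleotide exchange factors such as Hsp110. Stress releases Hsf1 from inhibition, and Hsf1 then binds arrays of the inverted unit GAA upstream of the inducible genes.

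The promoters below show the letters upstream of genes that lay on opposite sides of the genotype comparison, with Hspe1 added as a gene in which the array of inverted units is complete. They are the 250 bases before the RefSeq start, 5′ to 3′ on the gene's strand, in build GRCm38.p6. They cover Hspb1 (chr5:135887669-135887918, plus strand), the second of the 2 starts of Hspb6 (chr7:30553051-30553300, plus), Hspb8 (chr5:116422865-116423114, minus), Hspa1b (chr17:34959239-34959488, minus) and Hspe1 (chr1:55087898-55088147, plus). Capitals mark every match of GAANNTTC or TTCNNGAA, each of which is its own reverse complement and so covers both strands.
Hspb1: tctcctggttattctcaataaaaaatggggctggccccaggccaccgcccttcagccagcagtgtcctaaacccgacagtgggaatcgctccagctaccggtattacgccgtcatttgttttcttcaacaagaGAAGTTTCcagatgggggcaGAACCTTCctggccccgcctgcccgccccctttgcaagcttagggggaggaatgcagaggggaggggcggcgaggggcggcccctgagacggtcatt
Hspb6: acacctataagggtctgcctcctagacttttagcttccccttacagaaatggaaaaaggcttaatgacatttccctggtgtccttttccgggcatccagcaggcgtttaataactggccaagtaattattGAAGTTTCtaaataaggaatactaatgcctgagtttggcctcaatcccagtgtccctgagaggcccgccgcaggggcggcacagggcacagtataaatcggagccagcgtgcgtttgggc
Hspb8: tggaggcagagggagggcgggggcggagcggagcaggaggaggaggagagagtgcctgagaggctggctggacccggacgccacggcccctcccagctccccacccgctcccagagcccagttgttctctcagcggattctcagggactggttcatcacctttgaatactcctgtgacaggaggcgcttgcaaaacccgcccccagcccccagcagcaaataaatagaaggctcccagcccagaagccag
Hspa1b: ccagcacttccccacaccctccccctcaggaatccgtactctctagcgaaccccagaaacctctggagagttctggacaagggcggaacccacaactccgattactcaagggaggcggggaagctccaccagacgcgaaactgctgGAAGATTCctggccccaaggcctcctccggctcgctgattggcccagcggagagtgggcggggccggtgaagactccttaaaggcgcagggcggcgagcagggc
Hspe1: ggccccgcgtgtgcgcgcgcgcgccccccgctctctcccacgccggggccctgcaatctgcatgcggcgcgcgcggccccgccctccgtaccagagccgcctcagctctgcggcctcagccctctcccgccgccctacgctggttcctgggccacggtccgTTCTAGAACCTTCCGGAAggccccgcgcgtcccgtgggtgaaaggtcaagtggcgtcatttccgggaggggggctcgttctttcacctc

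Promoters were matched for 8 of the 10 genes (all but Cryab and Hsf1), and 6 of the 8 held at least 1 match before any of their starts. Of 32851 single RefSeq promoters of the same length, 12.8% held a match. The units differ, since Hspb6, Hsph1 and Dnajb1 had 2 starts each and so 2 windows in which to match. Hspb1 held GAANNTTC at 117 and 97 bases before its start, and 0.228% of all promoters held 2 or more separate matches of that motif. Hspe1 held overlapping matches at 89, 84 and 79 bases before its start, making at least 3 units in alternation, which 0.466% of all promoters had. Hspb6 held 1 match at 120 bases before the second start and none before its other start. Hspa1a and Hspa1b each held 1 match at 104 bases, and their upstream sequences were identical at 247 of 250 bases (98.8%). Hsph1 held TTCNNGAA at 54 and 33 bases before its 2 starts, while Hspb8 and Dnajb1 held neither motif in these windows. A match of letters is not a measured binding site.

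The library totals recovered from the RPKM values were 27728647 reads for the wild-type control and 27977248 for wild type with TNF. They were 20081869 for the control labelled Mll1-/- and 19306506 for that genotype with TNF. The reads recovered for the entries came to 1.77, 1.75, 1.67 and 1.71 times these totals, in the same order. Why they exceed the totals was not tested. Kmt2a stood at 1.85 RPKM in the wild-type control, 2.11 with TNF, and 2.02 and 1.66 in the libraries labelled Mll1-/-. Its level therefore did not separate the genotypes, although a level over the whole transcript cannot show a deletion of part of the gene, and the genotype is given as labelled throughout. Of 4 genes of the TNF response, 4 passed a 2-fold ratio with TNF in wild type and 3 in the libraries labelled Mll1-/-; the neutrophil chemokine Cxcl1 went from 18.6 to 319.9 RPKM and from 9.14 to 68.0. The genotypes also differed in Xist, the RNA that silences an X chromosome in female cells, at 7.06 and 7.84 RPKM in wild type against 0.0111 and 0.0202. The Y-linked genes gave no uniform split. Ddx3y was at 0.575 and 0.555 RPKM in wild type and higher in the other genotype, at 1.20 and 0.681. Uty was lower there, at 0.152 and 0.103 RPKM in wild type against 0.0381 and 0.0594, from 22 reads or fewer. Eif2s3y had 2 and 5 reads in wild type against 6 and 0. Genotype and any other difference between the cell sources cannot be told apart.

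In the wild-type control the order of the levels per length was Hspe1 (373 RPKM), Hsph1 (119.9), Cryab (103), Hsf1 (41.3), Dnajb1 (32.7), Hspb8 (31.9), Hspb6 (6.73), Hspa1a (0.412), Hspa1b (0.385) and Hspb1 (0). Hspe1, Hsph1, Cryab and Hsf1 kept places 1 to 4 in all 4 libraries. In the control labelled Mll1-/-, Hspb6 and Hspb1 stood at places 6 and 7, above Hspb8 at place 8. Neighbours such as Dnajb1 and Hspb8 in wild type were close, and with 1 library a group their order has no replicate check.

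**Figure D1:**
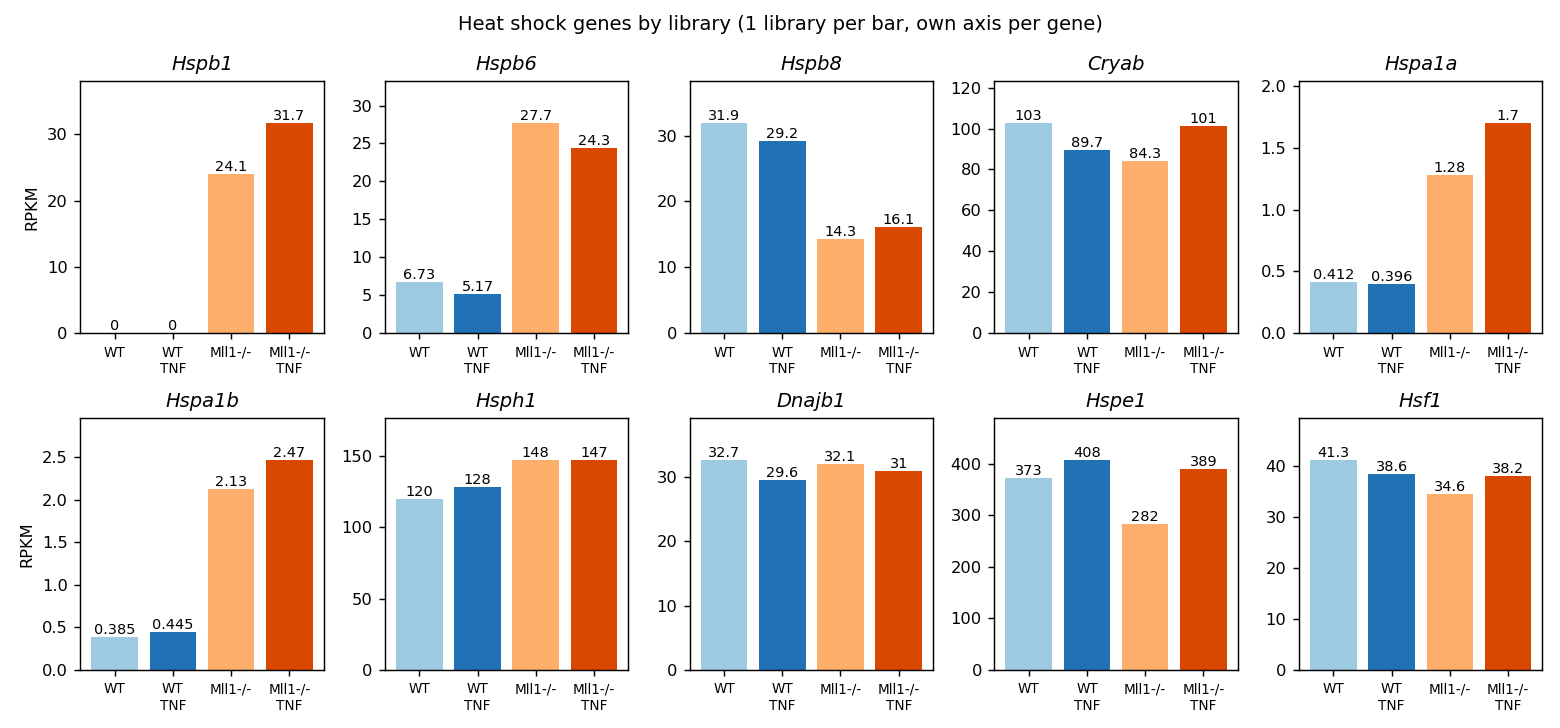
RPKM of each heat shock gene in each of the 4 libraries, with 1 bar per library and an axis from 0 for each gene; blue bars are wild type and orange bars are labelled Mll1-/-. Hspb1 has no bar in wild type and reaches 24.1 and 31.7 RPKM in the libraries labelled Mll1-/-, Hspb6 is higher there, Hspb8 is lower there, and the bars of Dnajb1 and Hsf1 are near one height.

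Across genotypes, the small heat shock protein genes Hspb1 and Hspb6 and the Hsp70 genes were higher in the cells labelled Mll1-/-, Hspb8 was lower, and the other 5 genes were within 2-fold. The size rule used here was a log2 ratio of (RPKM + 0.5) of at least 1 in either direction, which understates the ratio of genes near the floor. Ratios of reads are given beside it with a 95% exact binomial interval (Clopper-Pearson), called the counting interval, which covers counting error only and not the spread between cultures. Without TNF, 3 of the 10 genes were past the size rule higher and 1 lower, where 7.11% and 7.99% of all 14386 genes and entries were. With TNF the counts were 4 higher and 0 lower, where all genes gave 6.71% and 4.5%. These counts follow from how the genes were chosen. The median log2 ratio of the 10 genes was 0.13 without TNF and 0.19 with TNF, against -0.07 and -0.05 over all genes.

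Hspb1 encodes Hsp27, a small chaperone of stressed cells that also binds actin filaments. Its transcript entry of 913 bases had 0 reads in both wild-type libraries, and 441 reads (24.1 RPKM) in the control labelled Mll1-/- and 559 reads (31.7 RPKM) with TNF. Both libraries labelled Mll1-/- were thus above both wild-type libraries. The libraries of a genotype differ in treatment and are not replicates. The share of all genes separated in this way was not counted, here or for the genes below. Taking 0 as up to 3 reads in that library (0.119 and 0.117 RPKM), the level was at least 203-fold higher without TNF and at least 270-fold higher with TNF in the libraries labelled Mll1-/-. On the log2(RPKM + 0.5) scale the ratios were 5.62 and 6.01. Among the genes compared it stood at the 68.7th and 73.6th percentile of the libraries labelled Mll1-/-.

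The search below took its pattern from Hspb1 itself, so the count of genes and the place of Hspb1 among them are descriptions. Of the 14386 genes compared, 43 had 0 reads in both wild-type libraries. Of these, 6 had at least 5 RPKM in both libraries labelled Mll1-/-. Hspb1 was the highest of the 6, ahead of the necroptosis gene Mlkl at 17.6 RPKM in the control library. Genes with a trace in wild type miss this rule, such as Ramp3 at 0.0295 and 0.0293 RPKM in wild type against 30.6 and 34.4. The reverse pattern was found for 7 genes, led by Pcbd1 at 84.6 RPKM in the wild-type control. These genes were picked out after their values were seen. None of the 4 nearest neighbours of Hspb1 was higher in the libraries labelled Mll1-/-. Mdh2, a malate dehydrogenase, was at 365 and 342 RPKM in wild type and 206 and 241 in the libraries labelled Mll1-/-, and Ywhag, a 14-3-3 protein, was at 107 and 112 against 86.2 and 88.8. Srrm3 was under 1 RPKM in all 4 libraries, and Ssc4d was at 1.04 and 1.43 against 0.420 and 0.361.

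Hspb6 encodes Hsp20, a small chaperone of muscle. It had 258 reads (6.73 RPKM) in the wild-type control and 200 (5.17 RPKM) after TNF, against 769 (27.7 RPKM) and 650 (24.3 RPKM) in the libraries labelled Mll1-/-. Both of the latter were above both wild-type libraries, by 4.12-fold without TNF (counting interval 3.57 to 4.76) and 4.71-fold with TNF (4.01 to 5.55). Its nearest neighbours Proser3 (1.49, 1.56, 1.49 and 1.49 RPKM, in the order wild type, wild type with TNF, labelled Mll1-/-, and that with TNF) and Lin37, a subunit of the DREAM complex (6.43, 5.55, 5.04 and 6.23), were not past the size rule in either genotype comparison.

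Hspb8 encodes Hsp22, which works with Bag3 to pass misfolded proteins to autophagy. It had 1604 reads (31.9 RPKM) in the wild-type control and 1480 (29.2) after TNF, against 520 (14.3) and 563 (16.1) in the libraries labelled Mll1-/-. Both of the latter were below both wild-type libraries, a separation whose share over all genes was not counted. The level was 2.23-fold lower without TNF (counting interval 2.02 to 2.47; log2 ratio -1.13) and 1.81-fold lower with TNF (1.65 to 2.0; -0.84). It was not past the size rule without TNF either when the 20 most abundant genes were left out of the scaling (-0.84) or when a trend with transcript length was removed (-0.96).

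Cryab encodes alpha B-crystallin, a chaperone of lens and muscle that is also induced by stress. It had 103 RPKM in the wild-type control, 89.7 after TNF, 84.3 in the control labelled Mll1-/- and 101 in that genotype with TNF. The ranges of the genotypes overlapped, and the log2 ratio was -0.28 without TNF and 0.17 with TNF, the former turning to 0.01 under each of the alternatives just named. Hspb2, the small heat shock gene that lies head to head with Cryab, was at 0.861, 0.683, 0.793 and 0.660 RPKM in the same order of libraries, so Cryab was 106 to 153 times as high per length in each library.

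The summed level of the small heat shock genes among the 10 was 141 RPKM in the wild-type control, 124 with TNF, 150.3 in the control labelled Mll1-/- and 173 in that genotype with TNF. Cryab gave 72.7% of the sum in the wild-type control and 56.1% in the control labelled Mll1-/-, and Hspb8 gave 22.6% and 9.51%. Hspb6 gave 4.76% and 18.4%, and Hspb1 gave 0% and 16.0%.

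Some markers of other cell types differed between the genotypes as well, among them some of muscle, where Hspb6 and Cryab are abundant. Of 11 skeletal and cardiac muscle markers 7 were in the table, and 2 to 4 of them reached 1 RPKM in a library, with sums of 156 to 191 RPKM in wild type, against 242 to 249 in the libraries labelled Mll1-/-. Those sums are mostly Acta1, at 175 and 142 RPKM in wild type and 203 and 208 in the other genotype. The muscle creatine kinase gene Ckm was at 0 or close to it in all libraries, while Des was at 1.28 and 0.975 RPKM in wild type and 3.78 and 2.99 in the other genotype. Tnnt2 was at 13.9 and 12.8 RPKM in wild type and 34.2 and 36.2 in the other genotype. Of the 4 muscle markers compared, 2 (Des and Tnnt2) were past the size rule higher both without and with TNF, where 7.11% and 6.71% of all genes were. Acta1 and Actc1 were within it. The 6 smooth muscle markers summed to 107 to 116 RPKM in wild type, against 204 to 220.02 in the libraries labelled Mll1-/-. Those sums are mostly Acta2, at 98.0 and 87.4 RPKM in wild type and 177 and 189 in the other genotype. Tagln went the other way, at 0.728 and 1.10 RPKM against 0.534 and 0.588, and Cnn1 had at most 2 reads in any library. Neural and glial markers (5 of 6 in the table, 2 above 1 RPKM) summed to 14.3 to 14.6 and 85.7 to 95.9 RPKM, while Gfap and Sox10 had at most 5 reads in any library. Macrophage, epithelial and endothelial markers stayed below 1 RPKM in every library, with sums of at most 0.897 RPKM. Fibroblast markers (8 of 10 in the table) summed to 2419 to 2633 RPKM in wild type, against 2782 to 2953 in the other genotype; that sum is mostly Vim, at 2418 and 2224 against 2177 and 2097 RPKM. Past the size rule, 6 of the 8 were higher in the libraries labelled Mll1-/- both without and with TNF, where 7.11% and 6.71% of all genes were. The medians of the 8 were 2.02 and 2.09, against -0.07 and -0.05 over all genes. Among them Col3a1 was at 0.531 and 0.296 RPKM in wild type and 28.1 and 23.5 in the other genotype, and Dcn was at 0 in both wild-type libraries. The part of these differences in the levels of the heat shock genes was not tested, and in whole cultures more expressing cells and more RNA per cell cannot be told apart.

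Hspa1a and Hspa1b encode nearly the same stress-inducible Hsp70 protein. Reads from them could be split between the 2 entries, or counted in both, in a way that the files do not show. The 2 genes are therefore not independent observations, although the counts of genes given here include each. Both were near the floor. Hspa1a had 32 and 31 reads in wild type (0.412 and 0.396 RPKM) and 72 and 92 in the libraries labelled Mll1-/- (1.28 and 1.70 RPKM). Hspa1b had 30 and 35 reads in wild type (0.385 and 0.445 RPKM) and 120 and 134 in the libraries labelled Mll1-/- (2.13 and 2.47 RPKM). Each was higher in both of the latter libraries than in either wild-type library. The ratio without TNF was 3.11-fold for Hspa1a (counting interval 2.02 to 4.87) and 5.52-fold for Hspa1b (3.68 to 8.54), and with TNF 4.30-fold (2.83 to 6.69) and 5.55-fold (3.80 to 8.30). On the scale with the pseudocount Hspa1a was at 0.97 without TNF, just under the size rule, and Hspa1b at 1.57. Hspa1a passed the rule under 4 of 9 alternatives, at 1.03 to 1.64, which brought the count of genes higher without TNF from 3 to 4. Neither gene passed the 17.3rd percentile of any library.

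Hsph1, the Hsp110 nucleotide exchange factor of Hsp70, stood at 119.9 and 128 RPKM in wild type and 148 and 147 in the libraries labelled Mll1-/-. The ratio was 1.23 without TNF (counting interval 1.20 to 1.26) and 1.15 with TNF (1.12 to 1.18), so the levels lay close together. Dnajb1, the Hsp40 partner that stimulates Hsp70, was at 32.7 and 29.6 RPKM in wild type and 32.1 and 31.0 in the libraries labelled Mll1-/-; its ratios of 0.979 (0.915 to 1.05) and 1.05 (0.976 to 1.12) left equal levels within the counting interval.

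Hspe1, the Hsp10 lid of the mitochondrial chaperonin, was at 373 and 408 RPKM in wild type, 282 in the control labelled Mll1-/- and 389 in that genotype with TNF. The single low library was the control labelled Mll1-/-, at 0.757 times wild type (counting interval 0.729 to 0.785), while with TNF the ratio was 0.954 (0.923 to 0.986). Hspd1, the Hsp60 subunit that Hsp10 caps and whose gene lies head to head with Hspe1, was at 515, 543, 615 and 625 RPKM in the same order of libraries. The ratio of Hspe1 to Hspd1 per length was thus 0.725, 0.751, 0.459 and 0.622. With the length trend removed the log2 genotype ratio of Hspe1 was -0.02 in place of -0.40 without TNF, and 0.06 in place of -0.07 when TNF was given.

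Hsf1 itself was at 41.3 and 38.6 RPKM in wild type and 34.6 and 38.2 in the libraries labelled Mll1-/-. Its ratio was 0.837 without TNF (counting interval 0.783 to 0.895) and 0.989 with TNF (0.925 to 1.06). The log2 ratio without TNF, -0.25, turned to 0.04 when the 20 most abundant genes were left out of the scaling. An RNA level does not report the activity of Hsf1, which is set on the protein.

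By the counting interval, 5 of the 10 genes were higher and 4 lower without TNF, where 33.6% and 42.5% of all genes were. With TNF 6 were higher and 2 lower, where all genes gave 30.8% and 38.8%. At this depth the interval therefore leaves out a ratio of 1 for the majority of all genes compared, and it marks nothing particular to the heat shock genes.

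**Figure D2:**
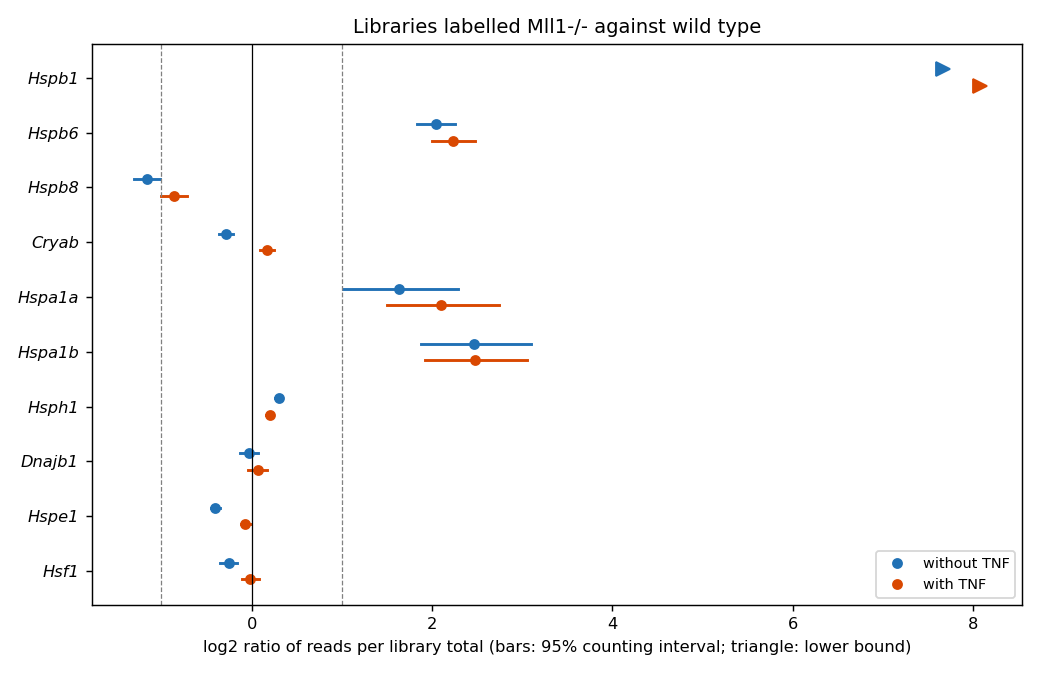
Log2 ratio of reads per library total, libraries labelled Mll1-/- over wild type, for each heat shock gene without TNF (blue) and with TNF (orange); bars are 95% counting intervals, triangles are lower bounds taken from 3 reads, and dashed lines mark 2-fold. Hspb1, Hspb6, Hspa1a and Hspa1b lie to the right in both conditions, Hspb8 lies to the left, and the other 5 genes lie between the dashed lines.

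Genes with the most similar profile over the 4 libraries were sought among 8428 genes with at least 5 RPKM in a library, by the root mean square difference of log2(RPKM + 0.5) after centring each gene, for the members with at least 5 RPKM and a span of 1 or more. For Hspb1, whose profile spanned 6.01, they were Ramp3 (0.11), F11r (0.12) and Ckb (0.13). For Hspb6 they were Cd24a (0.02), Ica1 (0.05) and Sardh (0.05). For Hspb8 they were Lgals9 (0.01), Znhit1 (0.02) and Lage3 (0.02). With 4 libraries that fall into 2 genotypes, likeness of this kind mainly states that a gene has a genotype ratio of the same size.

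No heat shock gene differed by 2-fold between TNF and control in either genotype. In wild type 0 of the 9 genes with reads were past the size rule higher or lower, where 0.521% and 0.0556% of all genes were. In the libraries labelled Mll1-/- 0 of 10 were, where all genes gave 0.688% and 0.16%. The difference of the log2 TNF ratios, labelled Mll1-/- minus wild type, was past 1 for 0 of 9 genes in either direction, where all genes gave 0.758% and 0.424%. Beside shares this small, 0 of 9 or 0 of 10 shows nothing particular to the heat shock genes. The comparisons with TNF share their control libraries with the genotype comparisons, so a low or high control library enters both.

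By the counting interval, 2 of 9 genes were higher with TNF in wild type (Hsph1 and Hspe1) and 5 lower (Hspb6, Hspb8, Cryab, Dnajb1 and Hsf1), where 15.8% and 19.8% of all genes were. In the libraries labelled Mll1-/-, 4 of 10 were higher (Hspb1, Cryab, Hspe1 and Hsf1) and 1 lower (Hspb6), where all genes gave 26.5% and 22.2%. The median log2 TNF ratio of the heat shock genes was -0.10 in wild type and 0.17 in the libraries labelled Mll1-/-, against -0.02 and 0.02 over all genes.

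In the libraries labelled Mll1-/-, 4 genes had a TNF ratio of reads with an interval above 1. The 3 highest of these belonged to the 3 shortest transcripts. Hspa1a (2798 bases) was at 1.33 times its control there, above Hspb1, but its interval of 0.966 to 1.84 held 1. Hspe1 (788 bases) was at 1.38 times its control there (counting interval 1.33 to 1.43) and 1.09 times in wild type (1.06 to 1.13). Hspb1 was at 1.32 times its control there (1.16 to 1.5) and had no reads in wild type. Cryab (1185 bases) was at 1.20 times its control there (1.13 to 1.28) and at 0.874 times in wild type (0.831 to 0.918). Hspb6 was lower with TNF in both genotypes, at 0.768 times control in wild type (0.636 to 0.928) and 0.879 times in the libraries labelled Mll1-/- (0.791 to 0.977). For Hspa1a and Hspa1b the reads were too few to tell a TNF ratio from 1 in either genotype, with intervals as wide as 0.567 to 1.62 and 0.690 to 1.95 in wild type.

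**Figure D3:**
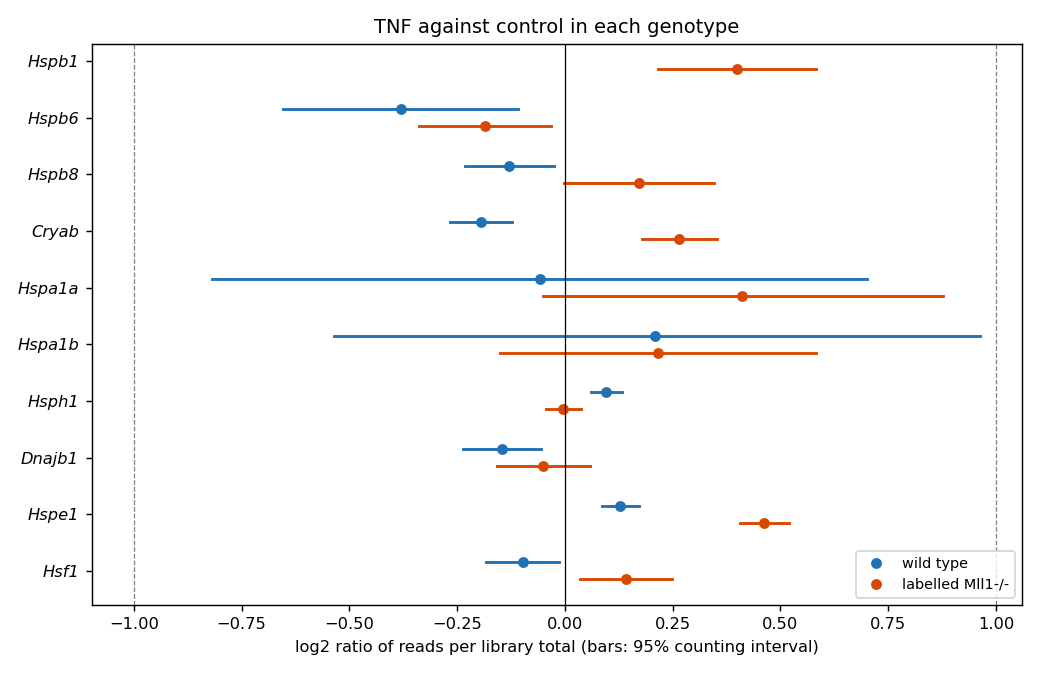
Log2 ratio of reads per library total, TNF over control, for each heat shock gene in wild type (blue) and in the libraries labelled Mll1-/- (orange), with 95% counting intervals as bars and dashed lines at 2-fold. All points lie between the dashed lines, Hspb1 has no wild-type point, and Cryab and Hsf1 lie on opposite sides of 0 in the 2 genotypes.

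Over all genes, the TNF ratio in the libraries labelled Mll1-/- was higher for short transcripts. Over the 10 length classes of equal size, the median log2 TNF ratio in those libraries ran from 0.31 in the shortest class to -0.20 in the longest, while in wild type it was -0.01 and 0.03. The class of Hspb1 and Hspe1 had a median of 0.22, and that of Cryab and Hspb6 had 0.18. Once the trend was removed, the TNF ratio in the libraries labelled Mll1-/- was 0.18 for Hspb1 in place of 0.39, 0.09 for Cryab in place of 0.26, and 0.23 for Hspe1 in place of 0.46. For Hspb6, at -0.18 as reported, the removal moved the ratio further below 0. Its difference of log2 TNF ratios, labelled Mll1-/- minus wild type, turned from 0.17 to -0.02. The same class medians ran from -0.53 to 0.25 for the genotype ratio without TNF, and from -0.17 to 0.01 with TNF. What produced the trend was not tested.

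**Figure D4:**
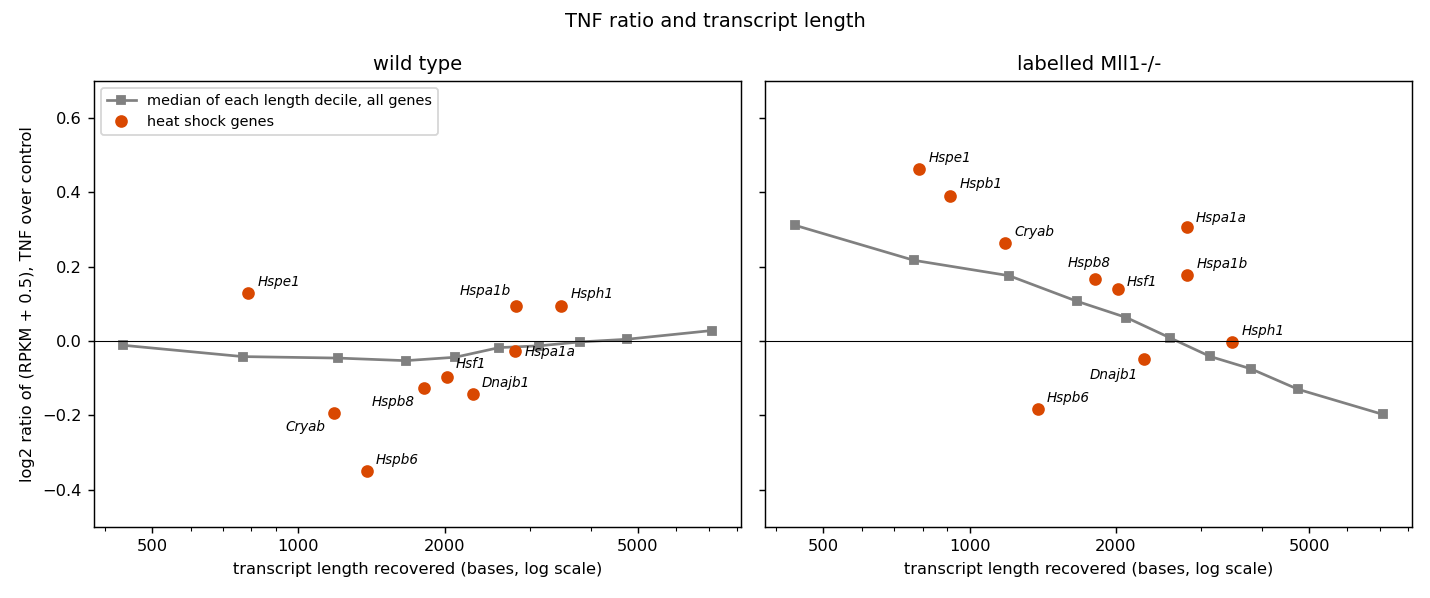
Log2 ratio of (RPKM + 0.5), TNF over control, against recovered transcript length on a log axis, in wild type and in the libraries labelled Mll1-/-; squares are medians of all compared genes in each length decile and circles are the heat shock genes. The squares are close to level in wild type and run from 0.31 to -0.20 in the libraries labelled Mll1-/-, where Hspe1, Hspb1 and Cryab lie on the side of short transcripts with high medians.

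The other chaperone and stress genes were taken from lists. Among 110 listed symbols outside the 10 genes, 98 were compared, and 2 were past the size rule higher and 1 lower without TNF, which is 2.04% and 1.02% of them beside 7.11% and 7.99% of all genes, with a median of -0.12. Hspa12a, a distant Hsp70 relative, was at 0.0126 and 0.00623 RPKM in wild type and 3.41 and 2.64 in the libraries labelled Mll1-/-. Dnajb5, an Hsp40 gene, was at 2.06 and 2.29 against 6.59 and 7.15. Hspb11, which carries a small heat shock name but is a subunit of the intraflagellar transport complex, was at 16.6 and 15.5 against 4.81 and 5.84. With TNF 2 were higher and 2 lower, or 2.04% each beside 6.71% and 4.5% of all genes, the addition being Dnajc9, an Hsp40 gene and histone chaperone, at 91.4 and 92.4 against 46.9 and 45.4. With TNF against control 0 of 98 were past the size rule in either genotype, where 0.0556% to 0.688% of all genes were in a direction.

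The classical targets of Hsf1 outside the 10 genes were within 2-fold: 0 of 15 were past the size rule in any of the comparisons, with medians of -0.11 and -0.14 between genotypes without and with TNF, and 0.02 for TNF in each genotype. Over all genes these shares were 4.5% to 7.99% in a direction for the genotype and 0.0556% to 0.688% for TNF, and beside them 0 of 15 shows nothing particular to these targets. Hspa8, the constitutive Hsp70, was at 2884, 2854, 2482 and 2593 RPKM in the order used above. Hspa4l, an Hsp110 relative, was nearest the rule on the high side at 24.3, 27.1, 48.4 and 47.0 (log2 ratio 0.98 without TNF). Fkbp4, a co-chaperone of Hsp90, was at 192, 178, 116 and 119 (-0.72).

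By list, the other Hsp70 and Hsp110 genes had the highest median genotype ratio without TNF, 0.40 over 12 genes with 1 past the size rule, and the endoplasmic reticulum Hsp70 gene Hspa5 among them was at 313, 348, 487 and 512 RPKM. With TNF the median of that list was 0.15, under the 0.17 of the endoplasmic reticulum chaperones. Over all genes 7.11% were past the rule higher without TNF and 7.99% lower. Counts in lists this short show nothing particular beside those shares. The other Hsp40 genes (19 compared, 1 higher) had a median of 0.05. The Hsp90 genes with co-chaperones (16), the Bag and nucleotide exchange genes (11), the mitochondrial chaperones and proteases (10) and the endoplasmic reticulum chaperones (15) had 0 past the rule and medians of -0.12, 0.00, 0.00 and 0.06. The chaperonin TRiC and prefoldin genes (14) had 0 past the rule and a median of -0.30. The autophagy partners of Hspb8 and Bag3 (7 compared) had 0 past the rule and a median of -0.45; Bag3 was at 16.1, 15.9, 18.5 and 17.8 RPKM. The autophagy receptor gene Sqstm1 was at 260.1, 389 RPKM with TNF, 175 and 259 with TNF, which gave log2 TNF ratios of 0.58 and 0.56.

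Of the other heat shock factor genes, Hsf2 was at 18.5, 18.9, 20.5 and 17.7 RPKM and Hsbp1, which encodes a protein that binds Hsf1, at 56.7, 54.3, 33.4 and 48.6. Hsf4 had 0, 0, 1 and 1 reads, Hsf5 had 15, 18, 7 and 2, and Hsf2bp had 6, 3, 4 and 2. Of the heat shock factor genes in the table, Hsf1 and Hsf2 were thus above 1 RPKM in every library.

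**Figure D5:**
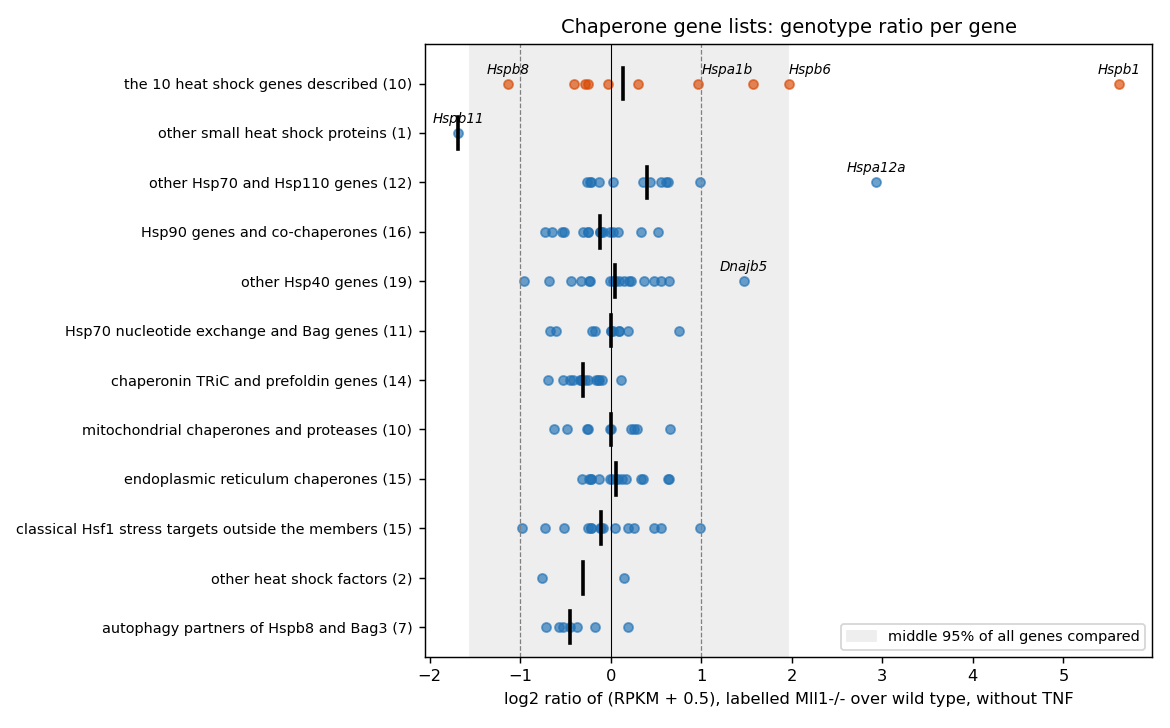
Log2 ratio of (RPKM + 0.5), labelled Mll1-/- over wild type without TNF, for the 10 heat shock genes (orange) and for each other chaperone list (blue), with list medians as black bars, the middle 95% of all compared genes in grey (-1.55 to 1.96) and dashed lines at 2-fold; a gene in several lists appears in each. Hspb1 and Hspa12a lie to the right of the grey band, Hspb6 (1.96) lies at its right edge, Hspb11 lies to its left, and the classical Hsf1 targets lie between the dashed lines.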

How the data were processed

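The authors deposited 1 table of RPKM values, per the file headers, with 27344 transcript entries in 4 libraries. The submitters' processing notes name TopHat and DESeq, with no role or version; the build, annotation, counter and strand handling are not stated in those notes, the labels or the header. Overlapping antisense reads therefore cannot be separated.

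Whole reads and lengths were recovered from the RPKM values (27344 of 27344 entries, or 100%, within 0.0001 reads). Reads of 1227 entries, Hsph1 among them, were scaled up by a whole factor to fit a reference length, and 79.0% of 20661 lengths then lay within 10% of it. Elsewhere recovered reads may be a lower bound. Reads carry no molecular identifiers, so they are not independent molecules.

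Names came from RefSeq (20849, GRCm38.p6) or GENCODE (102), and 6393 stayed unnamed; the entry with the highest mean RPKM stood for each symbol. Identical values in another entry were found for 3106 entries. Genes at 1 RPKM or more in any library were compared on log2(RPKM + 0.5), with no test since each group is 1 library. Intervals are 95% Clopper-Pearson (scipy 1.17.1), or normal for differences of TNF ratios, and a count of 0 was taken as up to 3 reads. Beside the 10 genes, up to 3 genes per list with the largest genotype ratio among those at 3 RPKM or more, and the heat shock factors, are named by rule; other genes named were chosen after their values were seen, and 1 gene of the lists is not reported here. The members and lists were chosen with earlier results of these data known. The script was tested on simulated data, and 10 alternatives were run.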

Additional observations from a re-analysis of the deposited data

Results flagged for a closer look

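Cryab and Hsf1 were flagged because TNF went with opposite directions in the genotypes, each ratio with a counting interval that leaves out 1. Such intervals were common: over all genes 15.8% were higher and 19.8% lower in wild type, and 26.5% and 22.2% in the libraries labelled Mll1-/-. The share of all genes with opposite directions was not counted, so Cryab and Hsf1 are not shown to be unusual. Cryab was at 0.874 times its control in wild type and 1.20 times in the libraries labelled Mll1-/-, a difference of 0.46 in log2 ratio (0.35 to 0.57 from counting error). With the length trend removed the difference was 0.24, and with scaling that omits the 20 genes of highest level it was 0.27. Hsf1 was at 0.934 times its control (counting interval 0.881 to 0.991) and 1.10 times (1.02 to 1.19), a difference of 0.24 (0.11 to 0.38). Its ratio in the libraries labelled Mll1-/- turned to -0.02 (log2) under that scaling. With 1 library a group, the difference between the genotypes was not tested against the spread of cultures.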

How the results depend on the processing

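Each gene's log2 ratio, the counts past the size rule and the list medians were recomputed under 10 alternatives (pseudocounts of 0.1 and 1 RPKM, no filter and a filter at 3 RPKM, 3 other scalings, a length trend removed, entries summed, and whole reads). Counting intervals, percentiles, marker sums and profile likeness were not. Of 100 counts of heat shock genes past the rule by setting, 91 equalled the reported count, 6 differed by at most 1.5 times and 3 by more. The 6 were 4 genes higher without TNF, in place of 3, under a pseudocount of 0.1, upper-quartile scaling, scaling that omits the 20 genes of highest level and whole reads (each adding Hspa1a), 2 at a filter of 3 RPKM, and 3 with TNF, in place of 4, at a pseudocount of 1 RPKM. With TNF, 2 genes in place of 4 were past the size rule higher at a filter of 3 RPKM, because Hspa1a and Hspa1b were no longer compared. Without TNF, 0 genes in place of 1 were lower, both under the scaling that omits 20 genes and with the length trend removed, since Hspb8 fell short of the rule. Hspb1 and Hspb6 were past the rule in both genotype comparisons under 10 of 10 alternatives (without TNF 4.65 to 7.92 and 1.89 to 2.25), and Hspa1b under 9 of 9. Hspa1a with TNF was past it under 8 of 9, the exception being 0.95 with a pseudocount of 1 RPKM.

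The alternatives for list medians and for the other chaperone genes were added after seeing the data. The median of the 10 genes without TNF ran from -0.14 (filter of 3 RPKM) to 0.43, and that of the other chaperone and stress genes from -0.12 to 0.18, with 2 to 4 of them higher and 1 lower. With TNF the median of the 10 genes ran from 0.12 to 0.30.

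Scaling without those 20 genes moved the median of all genes by 0.28 without TNF, 0.10 with TNF and -0.15 for TNF in the libraries labelled Mll1-/-. Without TNF the counts of all genes went from 1023 higher and 1150 lower to 1560 and 611 under it, and to 1184 and 701 with the length trend removed. Ratios close to 0 changed sign with these shifts, for Dnajb1, Cryab and Hsf1 without TNF and for Hspe1 and Hsf1 with TNF. For TNF in the libraries labelled Mll1-/-, 99 genes higher and 23 lower became 61 and 57 with the length trend removed. No paired analysis was possible because each group is 1 library. Depth limits Hspa1a and Hspa1b in wild type, at 30 to 35 reads.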
